A study of Mus musculus with 6 samples.

Results

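The Usp17l family of mouse deubiquitinases, also known as the DUB genes, was followed here through every probeset whose annotated symbols begin with Usp17l. There were 5 such probesets among the 35556 of the array. Usp17la (probeset 10555894), Usp17lb (10566395), Usp17lc (10555789) and Usp17ld (10566205) each had a probeset with 1 symbol. A further probeset (10566387) listed 4 symbols, Usp17la, Usp17lc, Usp17ld and Usp17le, and is called the shared probeset below. Usp17le was measured only through it. The RefSeq genes of GRCm38.p6 hold 6 Usp17l entries, all on chromosome 7, of which 5 are protein-coding and 1, Usp17le-ps, is a pseudogene with no probeset of its own symbol here. The 5 probesets were taken by symbol, though the family was picked with earlier results of these data known. None of its probesets was lost, since no filter on dim probesets was applied.

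The samples were mouse embryonic stem (ES) cells with the 2C::tomato fluorescent reporter, sorted by flow cytometry. The 3 positive arrays came from cells in which the reporter was on, and the 3 negative arrays from cells in which it was off. All 6 carry WT in their titles, were grown on gelatin in ES-KOSR medium, and gave 100 ng of total RNA each for labelling. The treatment protocol speaks of vehicle, or of 4OHT for removing Kdm1a, and the titles do not say which of them the WT samples received. Probeset values of Kdm1a spanned 10.91 to 11.25 on the log2 scale over the 6 arrays, and the groups overlapped. In published work, the reporter is driven by the long terminal repeat of an endogenous retrovirus that is transcribed in the 2-cell embryo, so a positive cell is defined by that promoter and not by a gene of the family. The labels name neither the number of ES lines or clones nor whether the 3 samples of a group were separate cultures, so the spread between them may be technical.

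Deubiquitinases remove ubiquitin, a small protein tag that marks other proteins for degradation or changes their activity. Usp17l proteins belong to the ubiquitin-specific protease (USP) class, the largest class of these enzymes. The founding mouse members were found as cytokine-induced early genes in blood cells, Dub1 (Usp17la) after interleukin-3 and Dub2 (Usp17lc) after interleukin-2. The genes are short, lie among olfactory receptor genes, and resemble each other in sequence, so an array probe for one copy can bind the transcript of another. In ES cells they are known among the transcripts of a rare state that resembles the 2-cell embryo.

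The copies resemble each other before their start sites as well. RefSeq promoter windows (GRCm38.p6, 250 bases before to 50 after the annotated start) were at hand for 4 of the 5 protein-coding genes: Usp17la, Usp17lb, Usp17lc and Usp17ld. The stretch of 150 bases below was lined up without gaps on the longest run that all 4 shared, 29 bases. It is printed 5′ to 3′ on the strand of each gene, with capitals at the 25 positions where the 4 copies do not all hold the same base. It lies at chr7:104856835-104856984 on the plus strand for Usp17la and chr7:104842600-104842749 on the minus strand for Usp17lb. For Usp17lc it lies at chr7:103416473-103416622 on the plus strand, and for Usp17ld at chr7:103252601-103252750 on the minus strand. The set is shown because it lets the reader see how alike the copies are whose values are compared next.
Usp17la: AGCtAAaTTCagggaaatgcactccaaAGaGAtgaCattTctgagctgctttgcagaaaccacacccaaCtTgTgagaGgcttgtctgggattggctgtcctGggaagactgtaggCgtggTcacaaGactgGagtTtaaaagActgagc
Usp17lb: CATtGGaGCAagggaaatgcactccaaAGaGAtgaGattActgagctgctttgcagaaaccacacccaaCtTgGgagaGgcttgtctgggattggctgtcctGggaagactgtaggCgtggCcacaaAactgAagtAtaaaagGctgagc
Usp17lc: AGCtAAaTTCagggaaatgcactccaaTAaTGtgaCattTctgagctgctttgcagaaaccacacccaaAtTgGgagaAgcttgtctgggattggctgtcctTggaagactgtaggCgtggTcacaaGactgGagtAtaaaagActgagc
Usp17ld: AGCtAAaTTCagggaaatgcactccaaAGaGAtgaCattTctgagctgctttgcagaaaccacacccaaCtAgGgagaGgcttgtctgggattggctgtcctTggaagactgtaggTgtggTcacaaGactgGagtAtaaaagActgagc

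Across the stretch, 125 of 150 positions were identical in all 4 copies. Usp17la and Usp17ld were the most alike, with the same base at 145 positions (96.7%), and Usp17lb and Usp17lc the least, at 129 (86.0%). Usp17lb alone differed from the other three at 14 positions, Usp17lc at 6, and Usp17la and Usp17ld at 2 each. Counted from 1 at the 5′ end of the printed stretch, with the base of the other copies first, the 2 of Usp17la were G74T and A137T, and those of Usp17ld were T72A and C117T.

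Both strands of the whole windows were searched for 4 short motifs. TATAAA, the letters of a TATA box, was present in Usp17lb, Usp17lc and Usp17ld, starting at position 136 of the stretch in each, and in 13.6% of all 32851 promoter windows of the same length. In Usp17la these letters are not in the window, and its difference A137T falls within the place where the other copies hold them. The TATAAA began 31 bases before the annotated start of Usp17lb, 88 before that of Usp17lc and 110 before that of Usp17ld, so the annotated starts do not sit at 1 place in the shared stretch. CCAAT, in either direction, was present in all 4 copies and in 37.4% of all windows. AGATAA, a form of the site of GATA factors, was in 0 of the 4 and in 11.2% of all windows. GATTNAATC, the core of the sequence bound by the 2-cell factor Dux, was in 0 of the 4 and in 0.268% of all windows. These are matches of letters only.

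All 5 Usp17l probesets lay higher in positive than in negative cells, by 7.11-fold for Usp17ld up to 15.2-fold for Usp17la, and in each of them every positive array stood above every negative array. Values are log2 expression as deposited, a difference is the mean of the positive minus the mean of the negative arrays, its SE comes from the limma fit over all probesets, and a fold is 2 to the power of that difference. Normalization of this kind pulls dim values together, and the negative values of Usp17la, at 4.75 to 5.84, were the lowest of the family. The folds can therefore be understated by unequal amounts. Comparisons of the copies below describe probeset values only, and no order of the transcripts themselves is read from them. No probeset of the family passed the test over all probesets. The 3 positive arrays of a probeset lay 4.22 to 5.39 log2 units apart, and the 3 negative arrays 0.19 to 1.09.

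Usp17la, the Dub1 copy, was at 4.75, 5.84 and 5.73 in negative arrays 1, 2 and 3 and at 8.49, 12.50 and 7.11 in positive arrays 1, 2 and 3. The groups did not overlap, positive array 2 was far above the other two, and negative array 1 was the lowest of the 6. Positive cells had a mean of 9.37 ± 2.80 (SD, n = 3), and negative cells one of 5.44 ± 0.60 (SD, n = 3). The difference was 3.93 (SE 1.31) (limma adjusted p = 0.875).

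Usp17lb, the Dub1a copy and the neighbour of Usp17la in gene order, was at 6.15, 6.41 and 6.23 in negative arrays 1 to 3. In positive arrays 1, 2 and 3 it was at 9.20, 12.55 and 7.68. The negative arrays lay within 0.26 of each other, and the lowest positive array stood 1.27 above the highest of them. The difference was 3.55 (SE 1.14), an 11.7-fold higher level in positive cells (limma adjusted p = 0.875).

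Usp17lc, the Dub2 copy, had the tightest negative arrays, at 6.90, 6.87 and 7.06. Its positive arrays 1, 2 and 3 were at 9.87, 12.64 and 8.42. Again array 2 was the highest and array 3 the lowest of the positive arrays, and the groups did not overlap. The means of 10.31 ± 2.15 (SD, n = 3) and 6.94 ± 0.10 (SD, n = 3) gave a difference of 3.37 (SE 0.98), or 10.3-fold (limma adjusted p = 0.875).

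Usp17ld, the Dub2a copy, was at 7.44, 6.75 and 7.01 in negative arrays 1, 2 and 3 and at 9.26, 12.49 and 7.94 in positive arrays 1, 2 and 3. Its groups came closest to each other, with 0.51 between the lowest positive array, number 3, and the highest negative array, number 1. The difference was 2.83 (SE 1.08), with a limma adjusted p = 0.875.

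The shared probeset, the only one that lists Usp17le, was at 6.83, 7.39 and 7.22 in negative arrays 1 to 3. It was at 10.40, 13.25 and 8.75 in positive arrays 1 to 3, in the same order as the probesets of single copies. The difference was 3.65 (SE 1.05), or 12.6-fold (limma adjusted p = 0.875). In the platform annotation its 11 accessions include all 3 of the Usp17la probeset, both of Usp17lc and both of Usp17ld, and 0 of the 4 of Usp17lb. It therefore gives no separate reading of Usp17le.

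**Figure D1:**
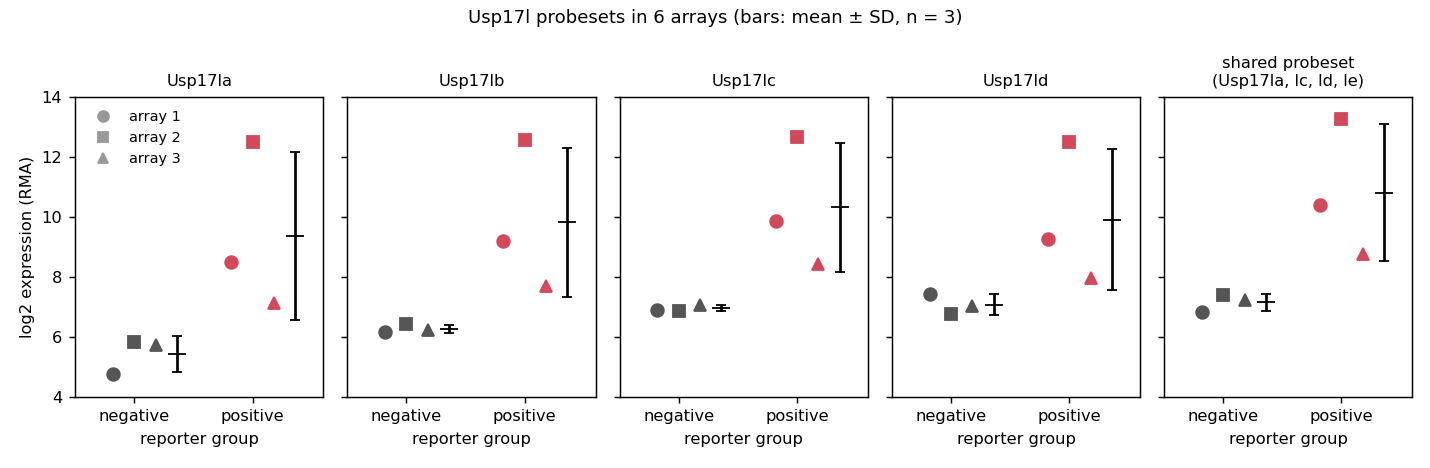
Log2 expression (vertical axis) of the 5 Usp17l probesets in 3 negative (grey) and 3 positive (red) arrays, with marker shape for array number and bars for mean ± SD (n = 3). In every panel the 3 positive arrays lie above the 3 negative ones, and positive array 2 is the highest, between 12.49 and 13.25.

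Set against the whole array, the family stood near the upper end by size and not by the test. With limma, 0 of the 5 probesets had an adjusted p under 0.05, and over all 35556 probesets the share was 0%, with a smallest adjusted p of 0.875. At an unadjusted p under 0.05, 5 of 5 were higher in positive cells, against 3.3% of all probesets. All 5 were at least 2-fold higher, against 1.14% of all probesets (405), and all 5 had every positive above every negative array, against 5.46%. By the size of the difference Usp17la was number 33 from the top, the shared probeset 44, Usp17lb 47, Usp17lc 66 and Usp17ld 122. The median difference over all probesets was -0.03. For each of the 5, the exact permutation test of 3 against 3 arrays gave p = 0.1 (two-sided), the smallest its 20 assignments allow. The 5 probesets are not independent readings, since copies can share transcripts and probes.

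Read by same-numbered arrays, all 5 probesets were higher in the positive array of each of the 3 pairs, and the sizes differed greatly between pairs. In pair 2 the differences lay between 5.74 and 6.66, that is 53.6-fold to 101-fold. In pair 1 they lay between 1.82 and 3.74, or 3.53-fold to 13.4-fold. In pair 3 they lay between 0.93 and 1.53, or 1.90-fold to 2.89-fold. The order of pair 2, then 1, then 3 held for 5 of 5 probesets. It was set by the positive arrays, whose values ran in the order 2, 1, 3 in 5 of 5, as in 15.1% of all probesets. At least 2-fold in every pair were 4 of 5, all but Usp17ld, against 0.172% of all probesets (61).

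The value of single arrays can be read from the fits without them. Without positive array 2 the differences of the 5 probesets lay between 1.53 and 2.43, and the fold of Usp17la was 5.14 in place of 15.2. Without positive array 3 they lay between 3.81 and 5.06, and the fold of Usp17la was 33.3. In these arrays of sorted pools, a larger share of cells with the transcripts and more transcript per cell cannot be told apart. Whether the purity of the sort differed between the positive arrays was not tested.

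**Figure D2:**
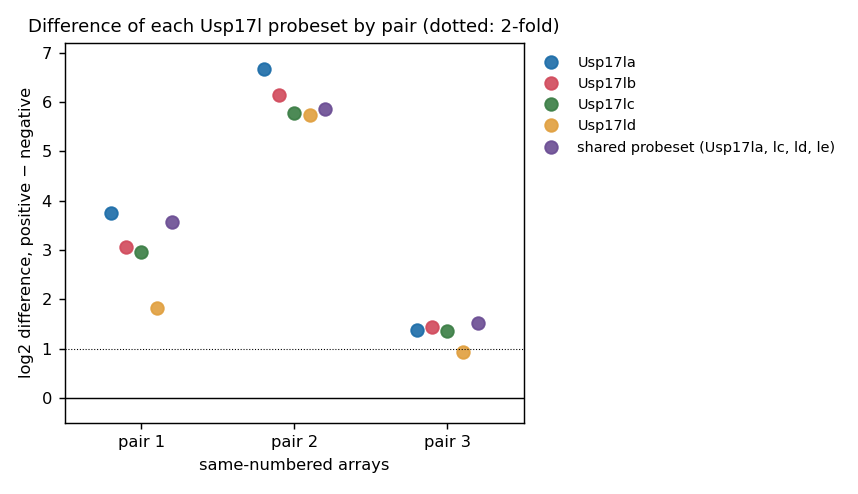
Log2 difference between the positive and the negative array of the same number (vertical axis) for each Usp17l probeset in pairs 1, 2 and 3, with 1 point for each probeset and a dotted line at 2-fold. Pair 2 holds the highest points (5.74 to 6.66) and pair 3 the lowest (0.93 to 1.53). The Usp17ld point is the lowest in each pair, in pair 2 by only 0.03.

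The 5 probesets had similar patterns over the 6 arrays. Pearson correlations between the 5 probesets, given as a description over 6 arrays in which both groups and any shared probes enter, lay between 0.970 for Usp17la with Usp17ld and 0.997 for Usp17lb with Usp17lc. Within arrays, the difference between positive and negative cells was 1.10 (log2) smaller for Usp17ld than for Usp17la, 0.72 smaller than for Usp17lb, 0.54 smaller than for Usp17lc and 0.82 smaller than for the shared probeset. Usp17la minus Usp17ld was -1.63 ± 0.94 (SD, n = 3) in negative and -0.53 ± 0.47 (SD, n = 3) in positive arrays. Levels of different probesets are not comparable, so the gap cannot be assigned to either group. Whether the probesets differ in the lowest level they can measure was not tested. Usp17ld had the smallest difference in 3 of 3 pairs, though in pair 2 it lay only 0.03 below Usp17lc. Pair 1 gave a gap of 1.92 to Usp17la, pair 2 one of 0.92 and pair 3 one of 0.45.

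These 4 comparisons, out of 10 between the 5 probesets, gave p = 0.1 in the exact permutation test, the smallest possible, and p = 0.25 after Benjamini-Hochberg adjustment over the 10. The other 6 gave an exact p of 0.2 to 0.6, with sizes of 0.11 to 0.56. None reached 0.05, which 3 against 3 arrays cannot give. Negative array 1, in which Usp17ld was at its highest negative value and Usp17la at its lowest, contributed most. Without it the gap between Usp17la and Usp17ld was 0.57 in place of 1.10. Leaving out any other array gave 0.83 to 1.46.

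Beside the family in gene order, the array measured olfactory receptor genes, which encode odorant receptors of sensory neurons. The 5 genes on each side of each Usp17l gene made 36 neighbours, of which 26, all olfactory receptor genes, had a probeset with 1 symbol. Their median difference was -0.18, against 3.55 for the family and -0.03 for all probesets. Leaving out negative array 1 gave a median of -0.09, leaving out array 3 of that group -0.11, and leaving out its array 2 -0.31. Of the 26, 3 were higher and 23 lower in positive cells, and none was 2-fold apart. With limma, 0 passed at an adjusted p under 0.05 and 0 at an unadjusted p under 0.05. All their values lay between 3.49 and 6.51, a low range in which this kind of summary pulls differences together.

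The nearest neighbours were measured on both sides of Usp17lc and Usp17le-ps and on 1 side of Usp17la, and not for Usp17ld, Usp17le or the outer side of Usp17lb. Olfr603 and Olfr605, on either side of Usp17lc, differed by 0.08 (SE 0.11) and 0.08 (SE 0.25). Olfr665, next to Usp17la, was at 3.99, 3.96 and 4.26 in negative arrays 1 to 3 and at 4.07, 4.12 and 4.07 in positive arrays 1 to 3, a difference of 0.02 (SE 0.12). Olfr658 and Olfr659, on either side of the pseudogene Usp17le-ps, differed by -0.19 (SE 0.11) and -0.17 (SE 0.18). Of the other neighbours the largest differences were those of Olfr591 at -0.53 (SE 0.24), Olfr598 at -0.37 (SE 0.21) and Olfr606 at -0.31 (SE 0.31). The differences of these 3 genes were between -0.73 and 0.04 when 1 array was left out, with Olfr606 at 0.04 without negative array 3.

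**Figure D3:**
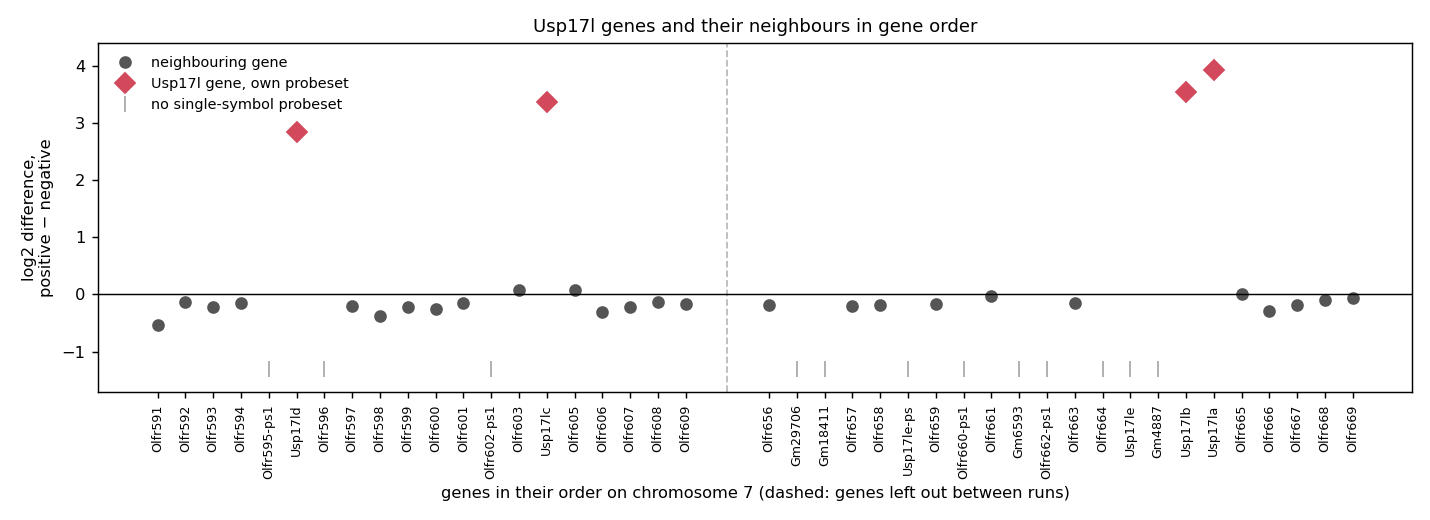
Log2 difference, positive minus negative (vertical axis), of Usp17l genes with a probeset of their own (red diamonds) and their neighbours (grey points) in their order on chromosome 7. The 4 Usp17l points lie between 2.83 and 3.93, and the 26 neighbours between -0.53 and 0.08. Ticks near the lower edge mark genes with no single-symbol probeset.

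The lists of other deubiquitinase genes had median differences near 0, against 3.55 for the family. The list of USP-type symbols had 53 measured genes. It was drawn by symbol, with Uspl1 and Cyld added by name, and without a check that each member is a deubiquitinase. Usp46os2 is a long non-coding RNA gene and not an enzyme, and others, such as Usp6nl and Uspl1, may share the symbol without being deubiquitinases. Of the 53, 33 were higher and 20 lower in positive cells, with a median difference of 0.03, and 1 was at least 2-fold apart. With limma, 0 passed at an adjusted p under 0.05 in either direction, and at an unadjusted p under 0.05 there were 2 higher and 1 lower, or 3.77% and 1.89%, against 3.3% and 2.17% of all probesets. Of the 33 genes of other deubiquitinase classes, 19 were higher and 14 lower, with a median of 0.05. None was 2-fold apart, 0 passed, and 3 (9.09%) were higher at an unadjusted p under 0.05, against 3.3% of all probesets. Every positive array stood above every negative array in 7 of the 53 and in 5 of the 33, against 5.46% of all probesets. The reverse held for 1 of the 53 and 0 of the 33.

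The USP gene with the largest difference was Usp26, an X-linked gene known from the testis. It was at 8.33, 6.97 and 8.57 in negative and at 9.21, 9.12 and 8.96 in positive arrays 1, 2 and 3. Its positive arrays were close together and lay above all negative arrays, while those of the family spread over 4 log2 units or more. Its difference was 1.14 (SE 0.41), and 0.64 without negative array 2, the lowest (limma adjusted p = 0.875).

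Cyld, a tumour suppressor that removes linear and K63-linked chains, differed by 0.48 (SE 0.11) without overlap, and Usp53 by 0.31 (SE 0.17). The 3 lowest of the list were Usp46os2 at -0.36 (SE 0.14), Usp11 at -0.27 (SE 0.33) and Usp46 at -0.26 (SE 0.16). In the other classes, Zup1, a K63-specific enzyme of genome maintenance, differed by 0.44 (SE 0.12), Mindy2 by 0.42 (SE 0.36) and Otud7a by 0.38 (SE 0.14). Tnfaip3, also known as A20, an inhibitor of NF-kB signalling, differed by -0.28 (SE 0.23), Uchl3 by -0.20 (SE 0.18) and Brcc3, the K63-specific enzyme of the BRCA1-A complex, by -0.19 (SE 0.23). None of these genes passed over all probesets. The sign of Usp11 turned to 0.05 without negative array 2, and that of Brcc3 to 0.06 without positive array 2. Without positive array 2 the difference of Mindy2 was 0.14 and that of Uchl3 -0.07. Without negative array 2, Mindy2 was at 0.75, Tnfaip3 at -0.10, Usp46 at -0.12 and Usp53 at 0.21.

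Proteins that the Usp17l enzymes or their human counterparts are reported to act on were measured as transcripts for 8 of 9 listed genes. With limma, 0 passed at an adjusted p under 0.05 and 0 at an unadjusted p under 0.05. The median difference was -0.05, with 2 genes higher and 6 lower, and it turned to 0.02 without positive array 2. Snai1, a transcription factor of epithelial to mesenchymal transition, was at 8.94, 8.89 and 8.73 in negative and at 9.34, 10.35 and 8.92 in positive arrays 1, 2 and 3. As in the family, positive array 2 was its highest array. Its difference was 0.68 (SE 0.35), and 0.27 without positive array 2.

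Bhlhe40, a transcription factor of the clock and of hypoxia, had a difference of -0.47 (SE 0.34), which was -0.19 when negative array 2 was left out. Cdc25a, the phosphatase that drives entry into S phase, differed by -0.21 (SE 0.22), with 0.04 without positive array 2. Rce1, a protease that processes Ras-type proteins, differed by -0.09 (SE 0.13). Of the 2 sensors of viral RNA, Ifih1 (MDA5) differed by -0.13 (SE 0.11) and Ddx58 (RIG-I) by 0.01 (SE 0.45). Suds3, a subunit of the Sin3 co-repressor, differed by -0.01 (SE 0.10) and Elk1, a transcription factor that responds to ERK, by -0.02 (SE 0.12). Without positive array 2 the sign of Rce1 turned to 0.02, and leaving out single arrays moved Ddx58 between -0.29 and 0.47. Suds3 and Elk1 stayed between -0.10 and 0.03, on both sides of 0. The arrays measure RNA, so nothing here bears on the amount of these proteins.

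Genes of the cytokine axis through which the founding members were discovered differed by -0.21 to 0.09 between the groups. Of 17 symbols for interleukin-2 and interleukin-3 family ligands, their receptors and the JAK and STAT5 proteins, 15 were measured, with 4 higher and 11 lower and a median of -0.11. With limma, 0 passed at an adjusted and 0 at an unadjusted p under 0.05. Single values of the list ran from 4.15 to 11.12. Without the dimmest 30% of probesets 8 of the 15 genes remained, with a median of -0.13. In the low range this kind of summary pulls differences together, so the dim genes cannot show whether their transcripts differed. The largest differences were those of Stat5b at -0.21 (SE 0.38), of Il5ra, a receptor chain for interleukin-5, at -0.20 (SE 0.11) and of Csf2rb2, the beta chain of the mouse interleukin-3 receptor, at -0.19 (SE 0.10). The sign of Stat5b turned to 0.12 without negative array 2. Il5ra lay in the low range, with means of 4.51 in positive and 4.71 in negative arrays. Csf2rb2 was at 6.20, 6.34 and 6.36 in positive and at 6.49, 6.54 and 6.46 in negative arrays 1, 2 and 3, so all positive arrays lay below all negative ones.

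**Figure D4:**
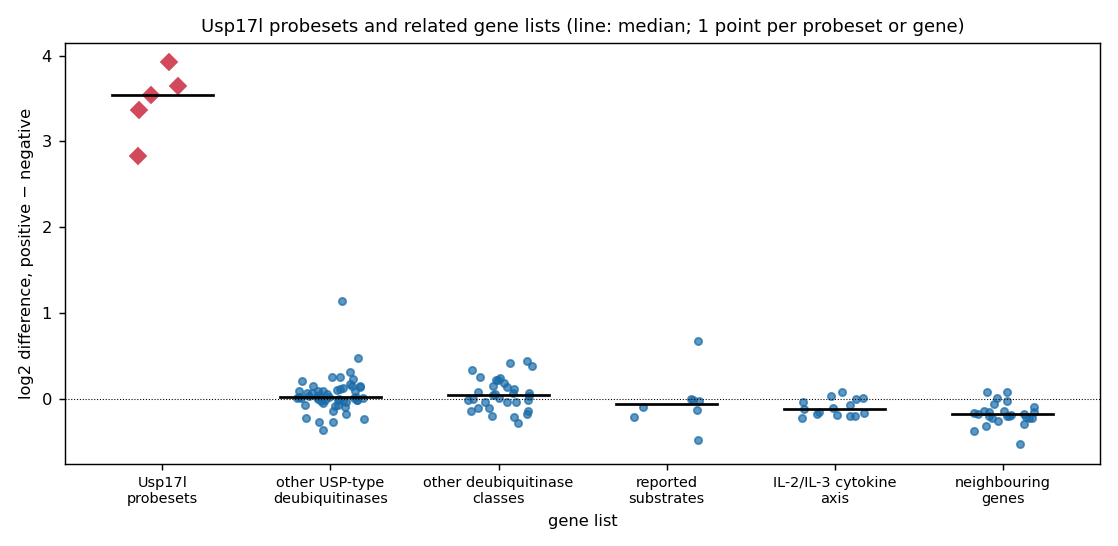
Log2 difference, positive minus negative (vertical axis), of the 5 Usp17l probesets and of the genes of 5 related lists, with 1 point for each probeset or gene and a line at the median. The family lies between 2.83 and 3.93, and of the genes of the other lists Usp26 alone is above 1, at 1.14.

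The labelled cell type and 2 others that the pools could hold were checked through marker genes. All 10 ES cell markers were well expressed in every array, between 10.12 and 13.70, and their median difference was -0.13. Of them, 3 were higher and 7 lower in positive cells, and none was 2-fold apart. Esrrb was lower without overlap, at -0.36 (SE 0.17). In pair 2 the differences of the 10 ran from -0.92 for Utf1 to 0.36 for Tdgf1. Pou5f1, which encodes Oct4, differed by -0.08 (SE 0.20). The 10 measured markers of blood cells, where the DUB genes were discovered, had means over the list of 6.07 to 6.33 in positive and 6.01 to 6.31 in negative arrays, with single values from 4.19 to 8.46 and none 2-fold apart. Of the 10 blood markers, 3 were higher and 7 lower in positive cells. Spi1 was higher without overlap, by 0.33 (SE 0.17). Cd34 had the largest difference of the list, 0.38 (SE 0.32), and its groups overlapped. Ptprc, the pan-leukocyte antigen CD45, lay between 5.28 and 5.61. The 10 markers of fibroblast feeder cells had means of 7.23 to 8.04 in positive and 7.58 to 8.13 in negative arrays. Of these 10, 4 lay higher and 6 lower in positive cells, with 2 of them lower by 2-fold or more, against 6 (0.0169%) of all probesets. The 2 were Acta2 at -1.16 (SE 1.10) and Tagln at -1.13 (SE 1.11), whose groups overlapped and whose highest value in each group was that of array 2. They differed by -0.34 and -0.17 without negative array 2. Col1a1 was lower without overlap, at -0.41 (SE 0.16), and Thy1 was higher without overlap, by 0.55 (SE 0.21). Col1a2 at -0.37 (SE 0.19) and Col3a1 at -0.33 (SE 0.16) were lower in each of the 3 pairs, and their groups overlapped. None of these genes passed over all probesets. Their part in the results of the family was not tested.

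The genes most like the family over the 6 arrays were sought among 318 single-symbol genes whose values spanned at least 2 log2 units. The pattern compared was that of Usp17la, whose values had the widest span of the family, 7.75. The highest Pearson correlations, over 6 arrays and as a description only, were those of Nat8f2 (r = 0.996), an acetyltransferase-like gene, Arsk (r = 0.991), a lysosomal sulfatase, Neto2 (r = 0.989), an auxiliary subunit of kainate receptors, Tdpoz8 (r = 0.987), of the TD and POZ domain family, and Chit1 (r = 0.985), a chitinase. Points of all genes come from the same 6 arrays, and positive array 2 weighs heavily in each r.

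Nat8f2 was at 5.41, 5.77 and 5.66 in negative and at 7.94, 10.97 and 6.76 in positive arrays 1, 2 and 3. Tdpoz8 was at 4.89, 4.74 and 5.23 in negative and at 6.62, 8.87 and 5.95 in positive arrays 1 to 3. The order of the positive arrays, 2 above 1 above 3, was that of Usp17la in each of the 5 genes, which their choice by correlation favours. Their folds were 7.69 and 4.58, against 15.2 for Usp17la. Arsk was 2.78-fold, Neto2 2.94-fold and Chit1 4.12-fold higher. None of the 5 genes passed over all probesets (limma adjusted p = 0.875).

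**Figure D5:**
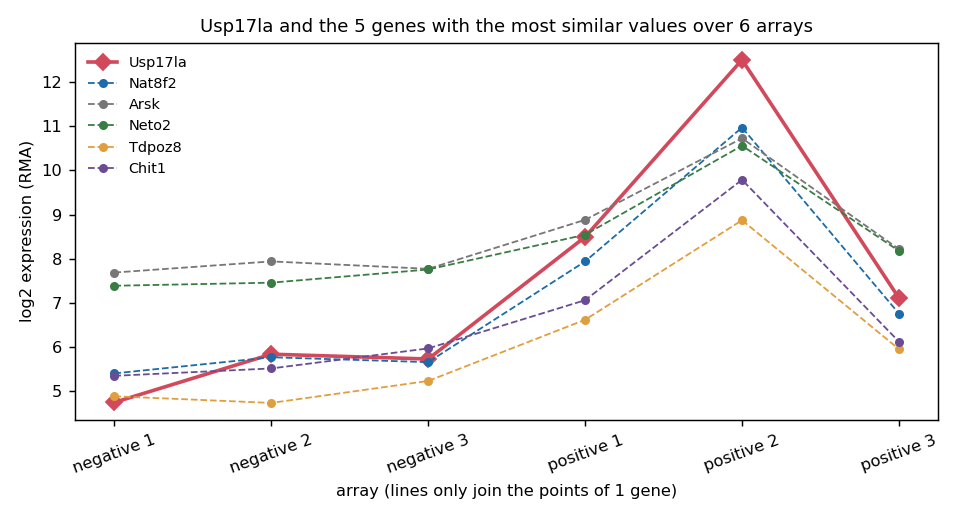
Log2 expression (vertical axis) of Usp17la (red) and of the 5 genes with the highest correlation to it, in the 6 arrays (horizontal axis). All 6 genes peak in positive array 2, where Usp17la reached 12.50 and Nat8f2 10.97, and lie at their lowest in the negative arrays.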

How the data were processed

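The authors deposited log2 values of expression for the 6 samples, made with RMA in Affymetrix Expression Console per the submitters' processing notes. RMA subtracts background, gives all arrays 1 distribution and combines a probeset's probes on the log2 scale, which pulls dim values together and removes differences in total RNA. The sources used here give no software version, genome build or annotation of the authors. Array medians were 6.95 to 7.04 and correlations between arrays 0.961 to 0.992; the number of arrays limits the precision.

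Symbols came from the platform annotation: 21789 probesets had 1 symbol, 1621 several and 12146 were not listed. Of the first kind, 21698 matched a RefSeq gene (GRCm38.p6) by identifier. RefSeq coordinates are printed only for the promoter sequences. Where a gene had more than 1 probeset, that of highest mean stood for it.

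All 35556 probesets were fitted with limma 3.58.1 in R 4.3.3 (lmFit, eBayes, two-sided, Benjamini-Hochberg adjustment over all probesets, threshold 0.05); the script was tested on simulated data. Copies were compared by exact permutation of the within-array difference. Groups and replicate numbers came from the titles. Deviations from the group means correlated across probesets between same-numbered arrays at 0.41, 0.39 and 0.18 for numbers 1, 2 and 3, so the numbers were taken to pair the samples. The main fit has no block, as no source states one.

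The members, lists and tests were chosen with earlier results of these data known. Named are all family probesets, the 3 largest and 3 smallest differences of each deubiquitinase list, all reported substrates, the 3 largest differences in size of the cytokine axis, the nearest neighbours and the 3 largest of the others, the 5 genes most like the family probeset of widest span, Kdm1a and Pou5f1. Ptprc, Spi1, Cd34, Esrrb, Utf1, Tdgf1, Acta2, Tagln, Col1a1, Col1a2, Col3a1, Thy1, Usp6nl and Uspl1 were named after their values were seen. Not measured through a single-symbol probeset were Uchl4, Il2rg and Jak3, and 1 listed gene is not reported here. Alternatives were a replicate block, 2 other scalings, fewer features, array weights and leaving out arrays.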

Additional observations from a re-analysis of the deposited data

How the results depend on the processing

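The direction of all 5 Usp17l probesets was kept under each of the 13 alternatives. The shared probeset had 12, as the fit of single-symbol genes leaves it out. Leaving out or weighting arrays could not have turned the direction, since every positive array stood above every negative array. The replicate block and the fits on fewer features left the differences as they were. The number with an adjusted p under 0.05 was 0 in each alternative. With the replicate number as a block, 0 of 5 passed, with the same differences and adjusted p between 0.489 and 0.490, and 0 probesets of the whole array passed. The block changed no call. Differences of the family lay between 2.82 and 3.92 with median centring, 2.78 and 3.90 with a second quantile normalization, 1.97 and 2.86 with array weights, and 1.37 and 2.56 without both arrays of replicate 2. Both arrays of replicate 2 had the lowest weights, 0.36 for positive and 0.40 for negative, against 0.87 to 2.94 for the others. Adjusted p-values over all alternatives ran from 0.213 to 1.00. Leaving out 1 array at a time gave 2.36 to 5.06 for Usp17la and 1.53 to 3.81 for Usp17ld. The gap between these copies was 0.57 to 1.46. The median of the USP list turned from 0.03 to -0.02 with a second quantile normalization. In the deubiquitinase, substrate, cytokine and neighbour lists 0 genes passed under every alternative run. With 3 arrays a group, exact tests cannot give a p under 0.1.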
